A study of Mus musculus with 6 samples.

Results

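The genes described here are 9 genes of the red blood cell, read as rows of the deposited count table of fetal mouse cortex by an exact match of the gene symbol. All 9 were found among the 45583 rows of the table. They comprise 4 beta-like globin genes (Hbb-y, Hbb-bh1, Hbb-bs and Hbb-bt), 3 alpha-like globin genes (Hba-x, Hba-a1 and Hba-a2), the heme enzyme gene Alas2 and the membrane transporter gene Slc4a1. The study asked how bisphenol A (BPA), a chemical present in plastics that has estrogen-like activity, given to pregnant mice alters the fetal brain. RNA of the brain cortex was sequenced from male fetuses at GD15.5 (gestational day), with 3 libraries for the vehicle group and 3 for the BPA group. This age is the one in the labels and the methods, while the results text of the study names a later day. Both groups were of the Cyp19-EGFP strain, with genotype recorded as WT and SRY +. In the study's methods, this strain carries a bacterial artificial chromosome with the aromatase gene Cyp19a1 and a green fluorescent protein gene, on an FVB/N background. Dams received daily subcutaneous injections from GD10.5 to GD14.5, of either BPA at 50 μg/kg or peanut oil as vehicle. The labels do not name the dam of each fetus, so p-values measure the spread between these libraries only, and litter and treatment cannot be told apart if littermates were used.

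Hemoglobin is a tetramer of a pair of alpha-like and a pair of beta-like chains, each holding a heme group. In the mouse, the primitive red cells that arise in the yolk sac make the embryonic chains from Hbb-y, Hbb-bh1 and Hba-x, and the definitive red cells that arise in the fetal liver make the adult-type chains from Hbb-bs, Hbb-bt, Hba-a1 and Hba-a2. Alas2 encodes the erythroid form of the enzyme that starts heme synthesis, and Slc4a1 encodes band 3, the anion exchanger of the red cell membrane. Fetal cortex is vascularized, and unless its vessels are flushed it holds blood. In bulk RNA fewer red cells and less RNA per red cell cannot be told apart. Nor do the counts tell which kind of red cell a transcript came from, so ratios of adult-type to embryonic genes are not ratios of cells.

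The beta-like genes lie on the minus strand of chromosome 7 in build GRCm38 (GENCODE M21 coordinates). Hbb-bt spans chr7:103812524-103813996, Hbb-bs chr7:103826534-103828096, Hbb-bh1 chr7:103841637-103843164 and Hbb-y chr7:103851749-103853216. The alpha-like genes lie on the plus strand of chromosome 11, with Hba-x at chr11:32276400-32278116, Hba-a1 at chr11:32283511-32284465 and Hba-a2 at chr11:32296489-32297298. Slc4a1 lies on the minus strand at chr11:102348824-102366203, and Alas2 on the plus strand at chrX:150547375-150570638.

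The adult-type genes of each chain are near-identical copies. In GENCODE M21, the 429 coding bases of Hba-a1 and Hba-a2 differ at 1 base, C381T, and the 444 coding bases of Hbb-bs and Hbb-bt differ at 1 base, C417T, with positions counted from 1 at the A of the start codon and the base of the first-named gene given first. The stretches of coding exon around these bases are shown because, inside the coding sequence, a read can tell the copies apart only if it covers them. The capital marks the differing base, and each sequence is on the strand of its gene, at chr11:32284329-32284356 for Hba-a1, chr11:32297146-32297173 for Hba-a2, chr7:103826679-103826706 for Hbb-bs and chr7:103812670-103812697 for Hbb-bt.
Hba-a1: catgcctctctggaCaaattccttgcct
Hba-a2: catgcctctctggaTaaattccttgcct
Hbb-bs: gtggctggagtggcCgctgccctggctc
Hbb-bt: gtggctggagtggcTgctgccctggctc
The embryonic genes are further apart. Hbb-y and Hbb-bh1 had 76.4% of coding bases in common, Hbb-y and Hbb-bs 74.3%, and Hba-x and Hba-a1 62.0%.

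The promoters were searched for 5 short motifs on both strands, in the RefSeq windows (GRCm38.p6) from 250 bases before to 50 bases after each start, which were present for 7 of the 9 genes. The motif CACCC, bound by Klf1 and related factors, was found for 7 of 7 genes, against 59.8% of 27025 genes. Its longer form CCACACCC, which overlaps it, was found only for Hbb-bs among the 7 genes, against 4.09% of all genes. CCAAT was found for 5 genes, against 41.1% of all genes, and ATATAA for 5 genes, against 11.3%. The motif AGATAA, of the type bound by Gata1, was found for Hbb-bs and Alas2, against 12.7% of all genes. The windows around the CACCC match of the adult beta genes and of Hbb-y are shown, with CACCC in capitals. They lie on the minus strand, at chr7:103828001-103828028 for Hbb-bs, chr7:103813995-103814022 for Hbb-bt and chr7:103853301-103853328 for Hbb-y.
Hbb-bs: cgtagagccaCACCCtggtaagggccaa
Hbb-bt: tgcagggtaaCACCCtggcattggccaa
Hbb-y: gacctggctcCACCCatgaggaccacgg
These matches are a description of the letters in the windows, and no relation to counts was tested. The windows around the CACCC match of Hba-a1 and Hba-a2, not shown, had the same letters as each other. In GENCODE M21 the Hbb-bs window lies inside the span of the gene and the Hbb-bt window touches it, since the RefSeq starts lie further in. No measurement of factor binding was analysed here.

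Library totals ran from 5030652 to 7180835 counts with vehicle and from 3444601 to 6426857 with BPA, with vehicle replicate 3 and BPA replicate 3 the shallowest of their groups. Values are given as raw counts or as CPM, counts per 1000000 of the library total after TMM scaling (trimmed mean of M-values). A count of 3, at and below which a level was treated as not detectable, equals 0.422 CPM in the deepest and 0.875 CPM in the shallowest library. Markers of cortical neurons and progenitors were high in every library, with a summed level of 10463 to 11148 CPM over 15 genes.

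Globin RNA was a small share of every library. The 7 globin genes together held 13432 counts, or 0.0383% of all counts, and between 0.0269% and 0.0582% of any library. Their summed level was 436, 272 and 577 CPM in vehicle replicates 1 to 3 and 321, 393 and 336 CPM in BPA replicates 1 to 3. The vehicle libraries held both the lowest and the highest value, and the BPA libraries lay between them.

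The adult-type genes carried most of these counts. Hbb-bs, which encodes an adult beta chain, was at 219, 141 and 324 CPM with vehicle and at 178, 231 and 186 CPM with BPA. Hba-a1, which encodes the adult alpha chain, was at 183, 99.7 and 224 CPM with vehicle and at 111, 132 and 131 CPM with BPA. Hbb-bt, the other adult beta gene, was at 17.2, 10.4 and 20.3 CPM with vehicle and at 12.9, 17.1 and 15.46 CPM with BPA. For these genes vehicle replicate 2 was the lowest and vehicle replicate 3 the highest of the 6 libraries, and the treatment groups overlapped. The fourth adult gene, Hba-a2, had 2, 0 and 2 counts with vehicle and 1, 4 and 2 counts with BPA. It passed the floor of 3 counts only in BPA replicate 2.

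**Figure D1:**
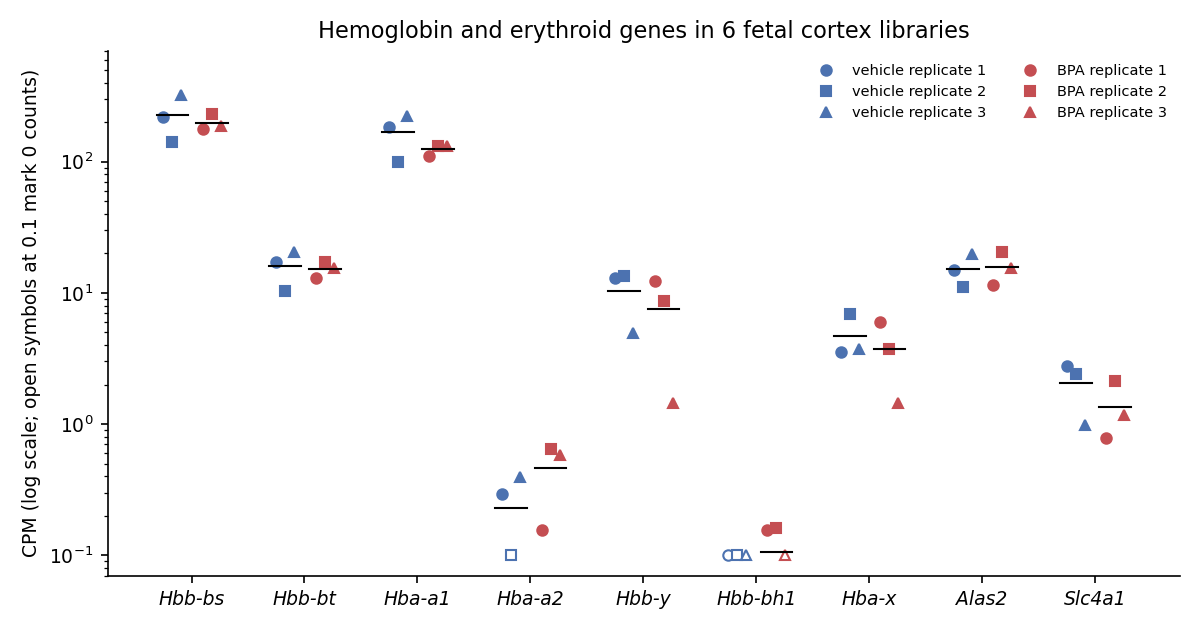
Level of the 9 genes in each library, in CPM on a log scale, for vehicle (blue) and BPA (red) libraries. Symbols mark replicates, black lines mark group means and open symbols at 0.1 mark libraries with 0 counts. Hbb-bs and Hba-a1 lie near or above 100 CPM in every library, while Hba-a2 and Hbb-bh1 lie below 1 CPM, and the groups overlap for each gene.

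The embryonic genes were lower and more variable. Hbb-y, which encodes the embryonic epsilon-type beta chain, had 88, 95 and 25 counts with vehicle and 79, 53 and 5 counts with BPA, or 12.9, 13.4 and 4.93 CPM and 12.4, 8.61 and 1.46 CPM. Hba-x, which encodes the embryonic zeta chain, had 24, 49 and 19 counts with vehicle and 38, 23 and 5 counts with BPA, or 3.53, 6.90 and 3.75 CPM and 5.97, 3.74 and 1.46 CPM. Both were lowest in BPA replicate 3, the shallowest library. The highest library exceeded the lowest 9.17-fold for Hbb-y and 4.73-fold for Hba-x, against 2.29-fold for Hbb-bs and 2.24-fold for Hba-a1. Hbb-bh1, the other embryonic beta-like gene, had 1 count in each of BPA replicates 1 and 2 and 0 counts in the other libraries, and so passed the floor in 0 of 6 libraries.

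The erythroid genes that are not globins were detected as well. Alas2 was at 14.9, 11.1 and 19.9 CPM with vehicle and at 11.5, 20.3 and 15.46 CPM with BPA. Of its 50-base transcript words, 11.5% also occurred in another gene, chiefly Apex2, which overlaps it on the opposite strand. Slc4a1 had 19, 17 and 5 counts with vehicle and 5, 13 and 4 counts with BPA, or 2.79, 2.39 and 0.986 CPM and 0.785, 2.11 and 1.17 CPM. Its highest library exceeded its lowest 3.56-fold, at counts that lie close to the floor in 3 libraries.

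Levels of different genes were compared per kilobase of exonic length and within each library. The mean level was 278 CPM per kilobase for Hbb-bs, 181 for Hba-a1, 22.1 for Hbb-bt, 14.1 for Hbb-y, 6.46 for Alas2, 4.50 for Hba-x and 0.349 for Slc4a1. The values of 0.520 CPM per kilobase for Hba-a2 and 0.0869 for Hbb-bh1 rest on 11 and 2 counts in all. The adult and embryonic sets of each chain were compared by an exact two-sided sign-flip permutation test over 6 libraries, for which the smallest possible p is 0.031. Neighbors in the order of levels, and Hbb-y and Hba-x, were set side by side as well. These pairs were picked by the levels of the same libraries, so they are given as a description, with no test. The p-values of the sets were adjusted over the 9 comparisons computed.

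The adult beta genes exceeded the embryonic beta-like genes in 6 of 6 libraries. The mean log2 ratio per length was 4.68 ± 1.40 (SD, n = 6), or 25.6-fold (exact p = 0.031, adjusted p = 0.0469), and the ratio ran from 9.42-fold in vehicle replicate 2 to 115-fold in BPA replicate 3. The adult alpha genes exceeded Hba-x in 6 of 6 libraries as well, with a mean log2 ratio of 5.43 ± 1.02 (SD, n = 6), or 43.0-fold (exact p = 0.031, adjusted p = 0.0469), and a range from 16.7-fold to 104-fold in the same libraries. Counted per unshared 50-base word in place of length, the mean log2 ratio was 5.77 for the beta-like and 7.30 for the alpha-like genes. Per length, Hba-a1 exceeded Hbb-bt by 3.0 on the log2 scale, Hbb-y exceeded Hba-x by 1.48 and Hba-x exceeded Slc4a1 by 3.69, each in 6 of 6 libraries. Hbb-bs exceeded Hba-a1 by 0.63 in 6 of 6 libraries, but this order turned on the scale of unshared words, with 2394 counts per 100 words for Hba-a1 and 2188 for Hbb-bs over all libraries. This scale, also used for the log2 ratios of 5.77 and 7.30, assumes that reads in shared words were not counted, which is not known. Of the 211 unshared words of Hba-a1, 161 also occurred in the RefSeq start window of Hba-a2. Hbb-bt lay above Hbb-y, Hbb-y above Alas2 and Alas2 above Hba-x in 4 of 6 libraries each.

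The embryonic share of globin counts varied more between libraries than between groups. Among beta-like counts, Hbb-y and Hbb-bh1 made up 5.19%, 8.09% and 1.41% with vehicle and 6.18%, 3.41% and 0.719% with BPA. The 95% Wilson interval ran from 6.67% to 9.79% in vehicle replicate 2 and from 0.308% to 1.67% in BPA replicate 3, so these libraries differed by more than counting error. Among alpha-like counts, Hba-x made up 1.89%, 6.47% and 1.65% with vehicle and 5.08%, 2.75% and 1.10% with BPA. Such intervals cover counting error only. On both chains vehicle replicate 2 and BPA replicate 1 had the highest shares and vehicle replicate 3 and BPA replicate 3 the lowest. Those last libraries are also the shallowest, and the part of depth in these shares was not tested.

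**Figure D2:**
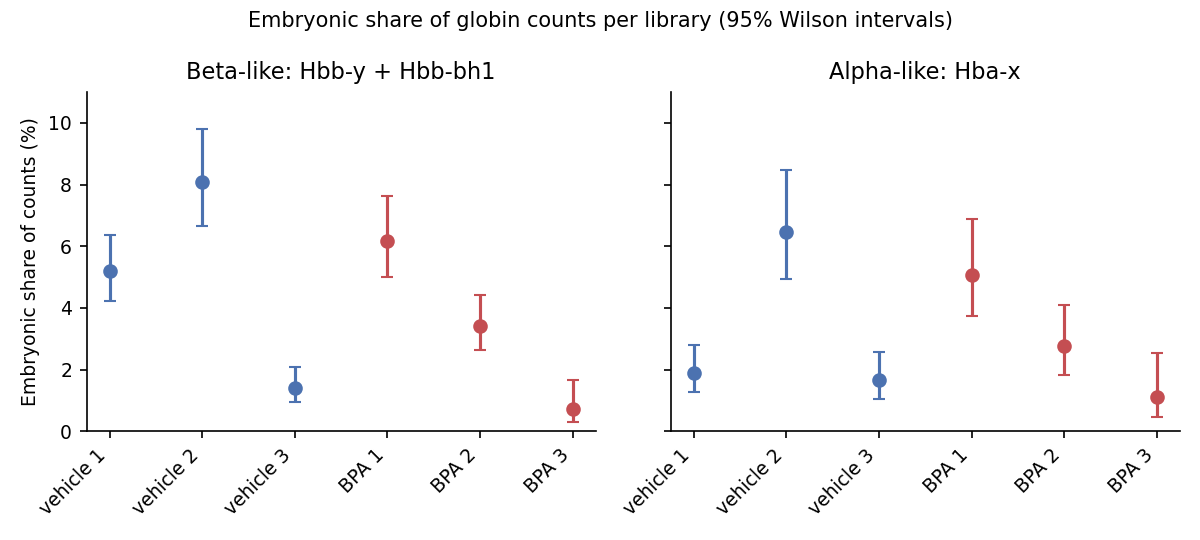
Embryonic share of beta-like (left) and alpha-like (right) globin counts in percent, for each vehicle (blue) and BPA (red) library, with 95% Wilson intervals. Shares run from 0.719% to 8.09% for the beta-like and from 1.10% to 6.47% for the alpha-like genes, and both groups hold high and low libraries.

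The share of embryonic counts did not separate the groups. The mean beta-like share was 4.90% ± 3.35 (SD, n = 3) with vehicle and 3.44% ± 2.73 (SD, n = 3) with BPA (exact two-sided permutation test, p = 0.7), and the mean alpha-like share was 3.34% ± 2.72 (SD, n = 3) and 2.98% ± 2.0 (SD, n = 3) (exact p = 0.8). With 3 libraries against 3 the smallest p that this test allows is 0.1. Without vehicle replicate 2, the BPA mean was the higher one on both chains, by 0.137 percentage points for the beta-like and 1.21 for the alpha-like share. Without BPA replicate 3 it was also the higher one for the alpha-like share, by 0.578.

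The near-identical copies received very unequal counts. Hba-a1 held 5052 and Hba-a2 held 11 of their 5063 counts, so that the share of Hba-a1 was 99.8% (95% Wilson interval 99.6% to 99.9%), and it lay between 99.5% and 100% in each library. Hbb-bs held 7330 and Hbb-bt held 534 of 7864 counts, a share of 93.2% for Hbb-bs (95% Wilson interval 92.6% to 93.7%), with a range of 92.3% to 94.1% over the libraries. Of the 50-base words of the Hba-a1 transcripts, 72.3% also occurred in Hba-a2, and of those of Hba-a2, 89.3% occurred in Hba-a1. Words found in a single copy numbered 211 for Hba-a1 and 66 for Hba-a2, so 76.2% of them belonged to Hba-a1. Of the 211, 161 also occurred in the RefSeq start window of Hba-a2, which its GENCODE model does not cover in full. Without these, 43.1% of the single-copy words belonged to Hba-a1. For the beta copies, 53.2% of the words of Hbb-bs and 58.3% of those of Hbb-bt were shared, and 55.1% of the single-copy words belonged to Hbb-bs.

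**Figure D3:**
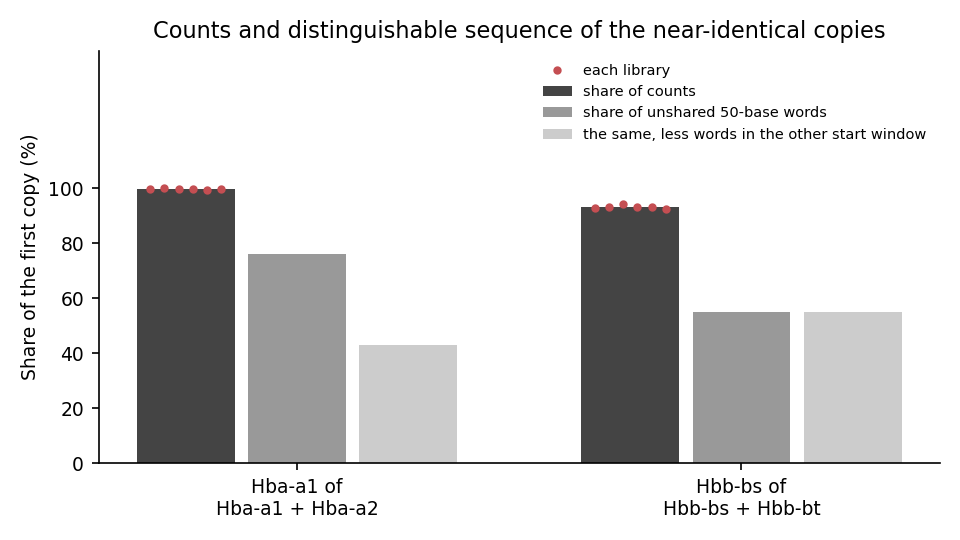
Share of the first copy of each near-identical pair in percent, among counts (dark bars, with red points for the 6 libraries), among 50-base words found in only 1 copy (mid grey), and among these words less those in the start window of the other copy (light grey). Hba-a1 holds 99.8% of the counts and 43.1% of the remaining words, and Hbb-bs holds 93.2% of the counts and 55.1% of the words.

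The counts of the copies are therefore given as the table assigns them, and the level of each copy is uncertain. How reads that align to several places were counted is not given in the sources used here. Whether the FVB/N background carries the bases printed above was not tested. Embryonic globins and Slc4a1 shared no 50-base word with another gene, so their counts do not carry this uncertainty. Per 100 unshared words, the counts over all libraries were 196 for Hbb-bt and 59.1 for Hbb-y, and 17.8 for Hba-x. On this scale, too, Hbb-bs and Hbb-bt lay above Hbb-y, and Hba-a1 above Hba-x. Hba-a2, at 16.7 from 11 counts in all, lay slightly below Hba-x.

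The shares of the copies did not separate the treatment groups. For Hba-a1 the mean share was 99.9% with vehicle and 99.6% with BPA (exact p = 0.3), and for Hbb-bs it was 93.3% and 92.9% (exact p = 0.5). Alpha-like genes made up 42.8%, 39.2% and 39.5% of all globin counts with vehicle and 36.6%, 34.6% and 39.6% with BPA, with means of 40.5% ± 2.01 (SD, n = 3) and 36.9% ± 2.50 (SD, n = 3) (exact p = 0.3). Hbb-bh1 made up 2 of 347 embryonic beta-like counts (exact p = 0.4 between groups). The summed globin level was lower by 0.23 on the log2 scale in the mean of the BPA libraries (exact p = 0.6), and without vehicle replicate 3 the difference was 0.017 in the other direction. Over the 7 permutation tests between groups the adjusted p was 0.8 for each.

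In the fit across all genes, no member passed the threshold for BPA against vehicle. The 7 members that passed the filter on low counts were tested by edgeR's quasi-likelihood test, and Hbb-bh1 and Hba-a2 were not. At an adjusted p under 0.1, 0 of 7 members and 0.00% of 13741 genes were called. At an unadjusted p under 0.05 the fit held 302 genes, or 2.20%, and DESeq2 called 3 genes at the adjusted threshold, none of them a member, and 126 at the unadjusted threshold. Hba-a1 was the only member with an unadjusted p under 0.05, in a direction in which 1.18% of all genes had such a p. Its log2 fold change was -0.43 (SE 0.20, 95% interval -0.86 to -0.01, unadjusted p = 0.0452, adjusted p = 1.0), with means of 169 CPM ± 63.2 (SD, n = 3) with vehicle and 125 CPM ± 11.5 (SD, n = 3) with BPA. Leaving out 1 library at a time moved this value between -0.71 without vehicle replicate 2 and -0.18 without vehicle replicate 3. Its unadjusted p was 0.202 with DESeq2, 0.108 with limma-voom and 0.0538 with a filter of 10 CPM in 3 libraries, so that 0 members had such a p there. Without vehicle replicate 2, Hba-a1 (unadjusted p = 2.5e-05, adjusted p = 0.168) and 1 more member, Hbb-bs (unadjusted p = 0.00888), had an unadjusted p under 0.05 in the edgeR fit. Without vehicle replicate 1 or 3 or BPA replicate 1 or 3 no member had one. When edgeR tested every gene with at least 1 count, the unadjusted p of Hba-a1 was 0.000127 and its adjusted p 0.134. The treatment groups overlapped for 7 of 7 members, while 6.75% of all genes tested had groups that did not overlap.

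Other members gave intervals that include 0. The log2 fold change was -0.20 for Hbb-bs (95% interval -0.63 to 0.24) and -0.06 for Hbb-bt (-0.53 to 0.40). For the embryonic genes it was -0.39 for Hbb-y (-1.26 to 0.49) and -0.26 for Hba-x (-1.05 to 0.54). For Alas2 it was 0.06 (-0.43 to 0.55) and for Slc4a1 -0.62 (-1.60 to 0.35). With 1 library left out in turn, Hbb-y moved between -0.90 without BPA replicate 1 and -0.02 without BPA replicate 3. Of the 7 members, 6 had a log2 fold change below 0, against 49.5% of all genes tested, and the median was -0.26, against 0.0016 over all genes tested. These genes are read from the same libraries and are not independent replicates. Without vehicle replicate 3, 4 of the 7 members were below 0, and the value was 0.14 for Hbb-bs and 0.13 for Hbb-bt.

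**Figure D4:**
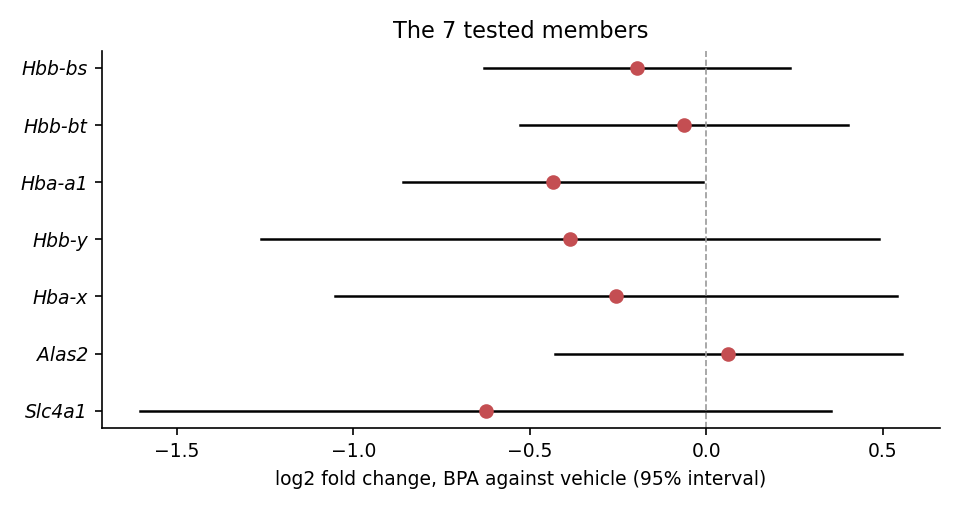
Log2 fold change of BPA against vehicle for the 7 members tested, with 95% intervals from edgeR's quasi-likelihood fit across all genes. The interval of Hba-a1 runs from -0.86 to -0.01 and those of the other 6 members include 0.

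Relations between members were computed over the 6 libraries. The log2 level of Hbb-bt followed that of Hbb-bs (Pearson r = 0.95, exact permutation p = 0.00833, Spearman rho = 0.94, exact p = 0.0167), and r was 0.89 without the 2 libraries farthest from the median. Hba-a1 also followed Hbb-bs (r = 0.91, exact permutation p = 0.00972, rho = 0.94, exact p = 0.0167), with r = 0.61 without vehicle replicates 2 and 3. Over the 6 relations computed, the adjusted p was 0.0292 for both values of r and 0.05 for both values of rho. Hba-x and Hbb-y gave r = 0.88 (exact permutation p = 0.0389, adjusted p = 0.0778) and rho = 0.60 (exact p = 0.242), and r was 0.52 without vehicle replicate 3 and BPA replicate 3, so this relation rests on those libraries. Between the embryonic and the adult beta genes the relation was not detectable, with r = -0.23 for Hbb-y and Hbb-bs (exact permutation p = 0.6) and rho = -0.54 (exact p = 0.297). These 4 relations were chosen after the data were seen, near-identical copies share reads, and no difference between relations was tested. A group holds too few libraries to give any of these relations within a group.

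The relations of the erythroid genes outside the globin families to the summed globin level were computed as well. Alas2 and the summed globin level gave r = 0.79 (exact permutation p = 0.0681, adjusted p = 0.102) and rho = 0.71 (exact p = 0.136), with r = 0.53 without vehicle replicates 2 and 3. Slc4a1 and the summed globin level gave r = -0.14 (exact permutation p = 0.806) and rho = 0.03 (exact p = 1.0), with r = 0.99 without the same libraries, so the value depends on those libraries and on few counts. Of 14507 genes averaging at least 1 CPM, the 10 whose log2 level was most like the summed globin level over the 6 libraries were Gm12231, Fndc3b, Tmem135, Ptpn6, Grm2, Rps16-ps2, Gm9843, Farsb, Lcp2 and Gm12989, with r between 0.98 and 0.99. Among all candidates 135 genes had r above 0.9, with 6 points that share depth and composition. Among these 10 genes, Ptpn6 and Lcp2 encode signaling proteins of blood cells, with 4 to 15 counts each. They were picked by what they encode, and no theme of the 10 genes was tested.

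Other globin genes were near or at the floor, with 1 exception. Cygb, which encodes cytoglobin of fibroblasts and neurons, averaged 16.9 CPM ± 1.48 (SD, n = 6) and had a log2 fold change of 0.03 (unadjusted p = 0.829, adjusted p = 1.0 by edgeR). Ngb, which encodes the neuronal globin, had 2 to 10 counts, Hbq1b 2 to 4, Hba-ps4 0 to 5, Mb (myoglobin) 0 to 2, and Hbq1a and Adgb 0 to 1. Hbb-bh2, Hbb-bh0 and Hbb-bh3 of the beta cluster were listed at 0 in all libraries. The adult beta genes of the other mouse haplotype, Hbb-b1 and Hbb-b2, were not analysed here.

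Genes of heme synthesis were detected in all libraries. Of 16 list genes tested, 0 passed the threshold in either direction, 12 had a log2 fold change below 0, and the median was -0.07. Fam210b, which aids heme synthesis in maturing red cells, was highest at 139 CPM, and the enzyme gene Alad was at 44.5 CPM. The smallest p-values belonged to Urod (-0.29, unadjusted p = 0.0600), Slc25a38 (-0.20, unadjusted p = 0.159) and Ppox (0.22, unadjusted p = 0.161), each with an adjusted p of 1.0 by edgeR. Alas1, the form of the enzyme used in most tissues, was at 37.4 CPM, above the 15.52 CPM of Alas2.

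Of 10 genes of iron uptake and storage tested, 0 passed the threshold. Ftl1, the ferritin light chain, was at 90.2 CPM with vehicle and 64.9 CPM with BPA, with a log2 fold change of -0.47 (SE 0.127, unadjusted p = 0.00199, adjusted p = 1.0 by edgeR). Fth1, the ferritin heavy chain, averaged 256 CPM (-0.17, unadjusted p = 0.134), and Tfr2, a transferrin receptor, 3.67 CPM (0.48, unadjusted p = 0.101). Ireb2 and Aco1, which encode regulators that sense iron, averaged 209 and 103 CPM. The median over this list was 0.07.

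Genes of the red cell membrane and of erythroid transcription were mostly either very low or also used by the cortex. Of 10 membrane and skeleton genes tested, 0 passed the threshold, 8 were below 0 and the median was -0.04. Cd24a, also made by young neurons, was at 1231 CPM, the adducin gene Add2 at 249 CPM and Cd47 at 72.4 CPM, while the red cell gene Rhag had 0 to 2 counts. Cd44 (-0.67, unadjusted p = 0.0671), Sptb (-0.19, unadjusted p = 0.211) and Ank1 (0.14, unadjusted p = 0.272) had the smallest p-values of the list. Of 12 transcription factor genes tested, 0 passed the threshold, 6 were below 0 and the median was -0.01. Bcl11a, Ldb1 and Sox6, which also act in cortical neurons, were at 498, 399 and 124 CPM, and Lmo2 (0.30, unadjusted p = 0.0878), Tal1 (-0.72, unadjusted p = 0.115) and Klf3 (0.19, unadjusted p = 0.129) had the smallest p-values. The erythroid factors Gata1, Klf1, Nfe2 and Gfi1b had 0 to 1, 0 to 4, 1 to 3 and 0 to 1 counts. Others of the same list were above it, with 61 to 106 counts for Lmo2, 56 to 104 for Zfpm1 and 21 to 55 for Myb.

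Of 15 erythroid enzyme and late genes tested, 0 passed the threshold, 11 were below 0 and the median was -0.04. Prdx2, an antioxidant enzyme gene of red cells and neurons, averaged 255 CPM (-0.16, unadjusted p = 0.236), Xpo7 177 CPM, and Kit, also used by neurons, 103 CPM. Cat, encoding catalase, was at 80.5 CPM (-0.11, unadjusted p = 0.358). Car1 and Hemgn, a carbonic anhydrase and a nuclear protein of red cells, were listed at 0 in all libraries.

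Markers of other cell types were read beside the globin levels. Of 14 pericyte and meningeal fibroblast genes, the summed level was 164 to 244 CPM with vehicle and 166 to 215 CPM with BPA. Vehicle replicate 3 was highest, as it was for the globins. The lowest was vehicle replicate 1, while for the globins it was vehicle replicate 2. The genes of this list differed in this. Col1a1 had 14, 20 and 115 counts and Col1a2 32, 23 and 104 in vehicle replicates 1 to 3. Across the same libraries Rgs5 was at 62.5 CPM ± 2.04 (SD, n = 3) and Pdgfrb at 36.8 CPM ± 4.10 (SD, n = 3). Of 12 microglia genes the sum was 66.4 to 94.9 CPM and 77.9 to 83.9 CPM, with vehicle replicate 2 lowest and vehicle replicate 3 highest, as for the globins. Of 16 leukocyte genes the sum was 43.4 to 57.4 CPM and 40.7 to 45.5 CPM, again with vehicle replicate 3 highest, and Cd3e, Cd3g, Ms4a3 and Ngp were at 0. Most of this sum was Coro1a, which averaged 38.9 CPM over the 6 libraries. The next highest, Prtn3, averaged 3.81 CPM, and Ptprc had 2 to 7 counts, so the sum chiefly follows 1 gene. Of 13 platelet genes the sum was 22.4 to 25.2 CPM and 18.7 to 21.5 CPM, with Gp6 and Tubb1 at 0. Of 15 endothelial genes the sum was 318 to 342 CPM and 304 to 348 CPM. The part of these cell types in the globin differences was not tested.

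Markers of tissues that lie outside the cortex differed between single libraries. Afp, a product of the fetal liver and the yolk sac, had 93 counts in BPA replicate 1 and 0 in the other 5 libraries, and Apoa1 had 16 counts there and 0 to 2 elsewhere. The same library had the second highest embryonic share on both chains, and its part in that share was not tested. Without it the log2 fold change moved to -0.90 for Hbb-y, -0.75 for Hba-x, 0.27 for Alas2, -0.28 for Slc4a1, -0.36 for Hba-a1, -0.12 for Hbb-bs and 0.05 for Hbb-bt, and 0 members were called. Alb, of the same hepatocyte list, had 0 to 3 counts, and Apoa2, Fgb, Serpina1a and Ahsg were at 0. The list's sum of 3.38 to 197 CPM with vehicle and 11.7 to 310 CPM with BPA was set chiefly by Ttr, which the choroid plexus also makes. Choroid plexus markers summed to 24.8 to 249 CPM and 27.1 to 392 CPM over 12 genes, with vehicle replicate 2 and BPA replicate 2 high. These libraries do not share a rank in the summed globin level, where vehicle replicate 2 was the lowest of 6.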

How the data were processed

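The authors deposited a table of raw read counts by gene symbol for 6 libraries. Per the study's methods, strand-specific libraries of total RNA were sequenced as single-end 50-base reads. They were aligned with TopHat (2.0.14 in the submitters' processing notes) to GRCm38 and counted with featureCounts. The methods also name StringTie 1.2.4, for transcript assembly guided by GENCODE models. For these libraries they do not state which models were used in counting. The handling of strand and of reads with several alignments is not given in the sources used here. Totals were 3444601 to 7180835 counts. Groups came from the labels, and replicates were numbered in accession order.

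Counts were tested in R 4.3.3 with edgeR 4.0.16 (filterByExpr with a minimum count of 10 and a minimum total of 15, TMM scaling, quasi-likelihood test, no covariate, Benjamini-Hochberg adjustment at 0.1 over 13741 genes), as the study's methods name edgeR, TMM and this threshold. The fit was tested on simulated data. Single values per library were compared by exact permutation in Python 3.11.15 with scipy 1.17.1. Log2 levels in correlations used a prior count of 2. Alternatives were DESeq2 1.42.0, voom of limma 3.58.1, other scalings and filters, copies summed, and each library left out. Transcript words, lengths and coordinates came from GENCODE M21, and start windows from RefSeq GRCm38.p6.

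The members and the lists were chosen with earlier results of these data known. The genes named were the members, other globin genes with counts, the 3 smallest p-values and 3 highest levels of each erythroid list, and the 10 genes most like the summed globin level. Lists of other cell types are given chiefly by sums and undetected markers. Some list genes are not reported here by name. Alas1, Rhag, Zfpm1, Myb, Gata1, Klf1, Nfe2, Gfi1b, Afp, Apoa1, Alb, Coro1a, Prtn3, Ptprc, Col1a1, Col1a2, Rgs5 and Pdgfrb were named after their values were seen.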

Additional observations from a re-analysis of the deposited data

How the results depend on the processing

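The count of genes called at an adjusted p under 0.1 was 0, and it was 3 with DESeq2, 19 when every gene with at least 1 count was tested, and 0 to 1 when 1 library was left out, with 1 call without vehicle replicate 3 or BPA replicate 2. No member was called under any of these settings. The 302 genes at an unadjusted p under 0.05 became 126 with DESeq2, 620 without the filter, 162 with at least 10 CPM in 3 libraries, and 194 to 708 with 1 library left out, with 708 without vehicle replicate 2 and 563 without BPA replicate 2.

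Other scalings, tools and filters and the summing of copies changed the direction of no member log2 fold change, with ranges of -0.44 to -0.36 for Hba-a1 and -0.58 to -0.38 for Hbb-y. With 1 library left out, Hbb-y ran from -0.90 to -0.02 and Slc4a1 from -1.19 to -0.28. Leaving out 1 library turned the direction of Hba-x (-0.75 to 0.15; 0.15 without vehicle replicate 2, 0.02 without BPA replicate 3), Hbb-bs (-0.45 to 0.14), Hbb-bt (-0.31 to 0.13; 0.01 without vehicle replicate 1, 0.13 without vehicle replicate 3, 0.05 without BPA replicate 1) and Alas2 (-0.20 to 0.28; -0.13 without vehicle replicate 2, -0.20 without BPA replicate 2). It also turned the beta-like embryonic share (-3.20 to 0.137 percentage points), the alpha-like share (-1.41 to 1.21; 0.578 without BPA replicate 3) and the summed globin level (-0.53 to 0.017). The cause was not tested. With 1 library left out, the adult to embryonic log2 ratio lay between 4.24 and 4.96 for the beta-like and between 5.17 and 5.70 for the alpha-like genes, at p = 0.0625, the smallest that an exact permutation over 5 libraries allows. Per unshared word it was 5.77 and 7.30, and with no length scaling 4.95 and 5.22.

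No paired analysis was made, because the labels give no replicate numbers shared between groups. The sample numbers in the titles alternate between vehicle and BPA, and whether neighbors in that order were handled as pairs is not stated.

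Hba-a2 and Hbb-bh1 lie at or near the floor of 3 counts and were not tested, and Slc4a1 had 4 or 5 counts in 3 libraries.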
